A study of Mus musculus with 13 samples.

Results

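The genes described here encode the lysosomal proton pump and its accessory proteins, the cathepsin proteases and the LAMP membrane proteins. They were taken by a rule on names, as every protein-coding gene of the GENCODE M21 annotation whose symbol begins with Atp6v or Atp6ap, or is Cts followed by a single letter, or is Lamp1, Lamp2 or Lamp3. This set was chosen with earlier results of these data known. The rule found 47 genes among the 49315 gene identifiers of the deposited count tables. By role, 13 encode subunits of the V1 sector of the pump, 9 encode subunits of the V0 sector, 3 are accessory genes of the pump, 18 are cathepsins and 3 are LAMPs. The remaining gene, Atp6v1fnb, is named only for lying beside Atp6v1f. Tcirg1, which encodes another V0 subunit, is not named as such and is given only for comparison.

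Bulk RNA sequencing was made from whole tissue of female mice that carried B16F10 tumours, a mouse melanoma cell line, grown after intradermal injection of 200000 cells in matrigel into the flank. The 3 groups compared have 3 libraries each: tumour-draining lymph nodes (tdLN) of Foxp3Ctrl mice, tdLN of Foxp3ΔJag1 mice, and tumours of the same 3 Foxp3Ctrl mice. In Foxp3ΔJag1 mice both Jag1 alleles are floxed, and the Cre recombinase is driven by Foxp3 and activated by tamoxifen, so that deletion is directed to Foxp3-expressing cells, chiefly regulatory T cells. The genotype of the Foxp3Ctrl mice is WT in one label and fl/wt with the same Cre in the design text, and which applied could not be settled. All mice of the 3 groups were given tamoxifen at 6 to 8 weeks of age, in 5 doses of 0.1 mg per g body weight, and were injected with tumour cells after a washout of 9 days, at an age of up to 11 weeks. Harvest was at the study's endpoint, and all libraries carry batch 1. The Foxp3ΔJag1 tumours were not analysed here. Node and tumour libraries of a Foxp3Ctrl replicate carry the same mouse code.

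The vacuolar proton pump acidifies lysosomes, endosomes and lysosome-related organelles such as melanosomes. Its V1 sector in the cytosol splits ATP, and the turning of its central stalk drives protons through the V0 sector in the membrane. Several subunits exist as alternative versions encoded by separate genes, some of them restricted to particular tissues. Cathepsins are proteases, most of which work best at acid pH. Those of antigen-presenting cells trim antigens and the invariant chain of MHC class II. LAMP proteins line the lysosomal membrane.

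The node libraries held 33157236 to 44540888 counts each, and the tumour libraries 32117478 to 40968494. The tissue labels were checked against markers. The summed level of 8 B cell markers was 3573 to 4035 CPM (counts scaled to a common library total) in Foxp3Ctrl nodes, 3682 to 4005 in Foxp3ΔJag1 nodes and 2.44 to 4.23 in tumours. The 10 melanoma markers summed to 6.66 to 32.8, 8.71 to 11.9 and 18460 to 24640 CPM in the same order. Libraries differed in minor tissues: skeletal muscle markers summed to 275 CPM in tumour replicate 3 and to 4.23 and 4.59 in replicates 1 and 2, and epithelial markers summed to 142 CPM in Foxp3Ctrl node replicate 3 and to 20.5 and 47.9 in replicates 1 and 2. Jag1 itself had a level of 24.1 ± 3.58 CPM in nodes of Foxp3ΔJag1 mice and 23.2 ± 1.21 CPM in those of Foxp3Ctrl mice (mean and SD of 3 libraries), and since whole nodes hold many cells without Foxp3, this level does not check the genotype.

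Most genes of the proton pump were expressed at higher levels in the tumours than in the draining nodes of the same mice, while the cathepsins were split between both tissues. Of the 47 genes, 39 passed the filter on low counts in this comparison, and edgeR's quasi-likelihood test called 26 higher and 9 lower in tumour at an FDR of 0.05. Among all 18566 genes tested, 35.6% were called higher and 37.6% lower in tumour, so a call by itself was common; of the 39 tested members, 66.7% were higher and 23.1% lower. The 26 genes higher in tumour were 20 of the 22 tested pump and accessory genes, Ctsb, Ctsd, Ctsk, Ctsz, Lamp1 and Lamp2. The 9 genes lower in tumour were Atp6v1g2, 7 cathepsins and Lamp3. Each of these 35 genes differed in the same direction in 3 of 3 mice, with no overlap between the 3 nodes and the 3 tumours. Overlap was thus absent for 35 of the 39 tested members, and for 77.9% of all genes tested, called or not. The 4 tested genes not called were Atp6v1b1, Ctsa, Ctsc and Ctsl. With the added demand of a 2-fold change, 17 members (43.6%) were called higher and 7 (17.9%) lower, against 22.1% and 26.3% of all genes. The median log2 fold change of tumour over node was 0.96 over the 39 tested members and -0.05 over all genes tested. These are values of whole tissue, in which fewer cells of a type and less RNA per cell cannot be told apart.

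**Figure D1:**
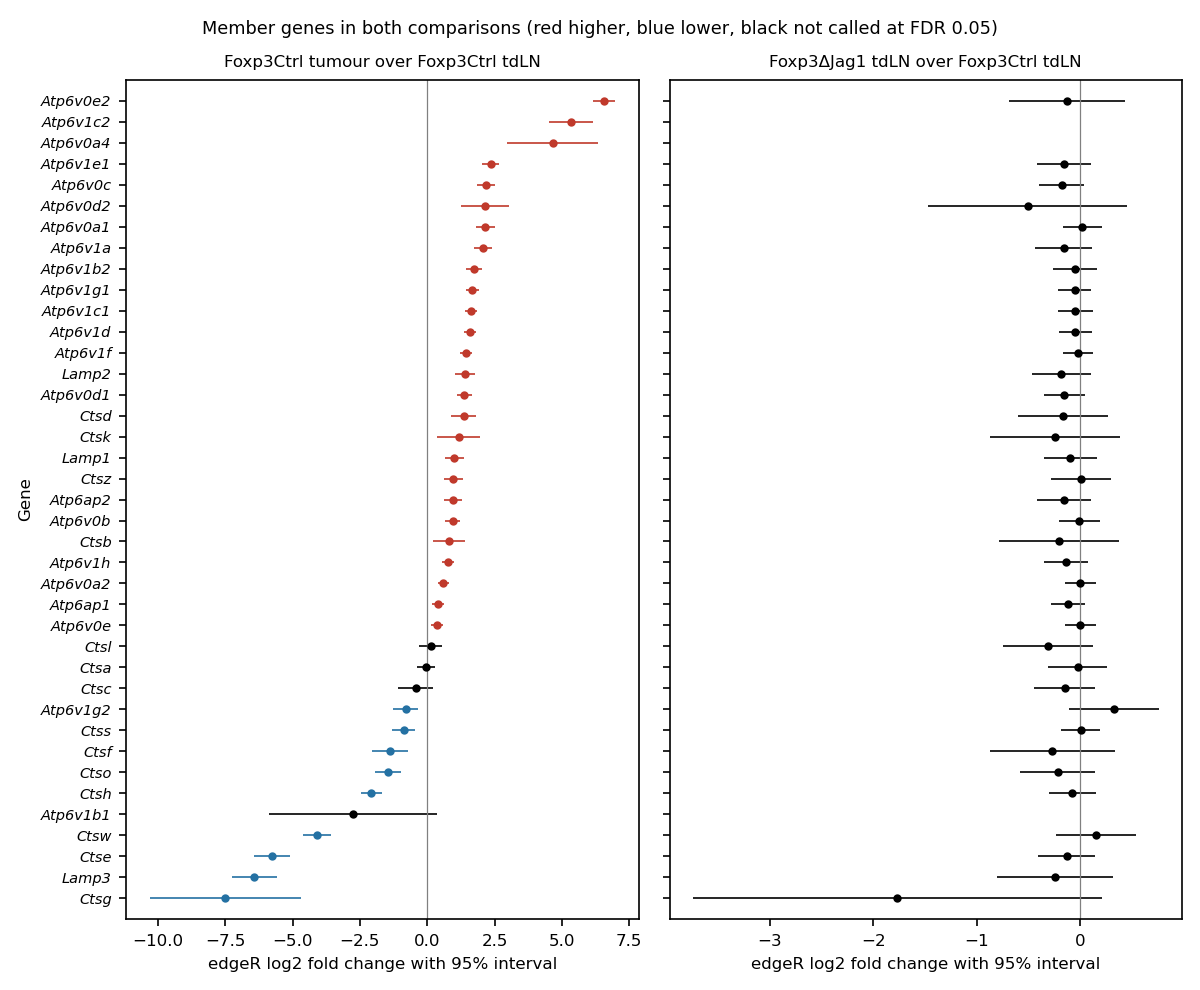
edgeR log2 fold changes of the tested member genes with 95% intervals, for Foxp3Ctrl tumour over Foxp3Ctrl node (left) and Foxp3ΔJag1 node over Foxp3Ctrl node (right), ordered by the left panel. Red marks genes called higher, blue genes called lower and black genes not called at an FDR of 0.05; 26 are red and 9 blue on the left, and none is coloured on the right.

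In the V1 sector, 9 of 11 tested subunit genes were higher in tumour, with a median log2 fold change of 1.63 over the 11. The summed level of the V1 genes was 596 ± 24.5 CPM in Foxp3Ctrl nodes and 1876 ± 136 CPM in tumours (SD, n = 3). Atp6v1a encodes the A subunit, which holds the catalytic ATP sites, and lies on chromosome 16 from 44085402 to 44139705 of GRCm38. Its level was 79.2, 85.4 and 66.3 CPM in the nodes of mice 1, 2 and 3 and 293, 302 and 339.5 CPM in their tumours. All tumours lay over 3 times above every node, and the log2 fold change was 2.07 ± 0.14 (SE; edgeR adjusted p = 7.09e-06). Atp6v1e1, for the E subunit of the peripheral stalks, was at 62.9, 57.2 and 51.4 CPM in nodes and 249.7, 279 and 315 CPM in tumours. Its log2 fold change was the second highest of the V1 genes, at 2.35 ± 0.14 (edgeR adjusted p = 3.3e-06). The B subunit gene Atp6v1b2 rose 3.31-fold, the stalk genes Atp6v1c1, Atp6v1d, Atp6v1f and Atp6v1g1 between 2.72-fold and 3.20-fold, and Atp6v1h, for the regulatory H subunit, 1.71-fold.

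The alternative V1 versions were less abundant and went in both directions. Atp6v1c2, the less widely expressed C subunit, was at 0.165, 0.116 and 0.0846 CPM in nodes and at 5.73, 3.74 and 5.26 CPM in tumours, from 14 and 537 counts. The log2 fold change was 5.34 ± 0.36 (edgeR adjusted p = 5.96e-06), and its share of the C subunit, from levels per kb of exon, was 0.579 ± 0.179% in Foxp3Ctrl nodes and 7.28 ± 1.35% in tumours (SD, n = 3). An exon of Atp6v1c2 overlaps Pdia6 on the opposite strand, and the strand setting of the counting is not given in the sources used here. Atp6v1g2, the G subunit known mainly from neurons, went the other way, from 8.65, 7.48 and 11.4 CPM in nodes to 4.77, 4.54 and 5.79 CPM in tumours. It was the only tested pump gene called lower in tumour, at a log2 fold change of -0.80 ± 0.20 (edgeR adjusted p = 0.00687), while its counterpart Atp6v1g1 was 3.20-fold higher. Its exons overlap Nfkbil1 on the opposite strand. Atp6v1g3, known from the kidney, had 11 counts over the 3 nodes and 0 over the tumours, at least 3.53-fold lower when 3 counts over the group stand for the 0. It did not pass the filter on low counts, and was called lower when that filter was left out.

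Atp6v1b1, the B subunit known from acid-secreting epithelial cells, varied widely between nodes. It was at 0.0275, 1.02 and 4.29 CPM in the Foxp3Ctrl nodes, at 0.0302 to 0.0521 CPM in the Foxp3ΔJag1 nodes and at 0.373, 0.195 and 0.156 CPM in the tumours. Node replicates 2 and 3 were above all other libraries, and node replicate 1 was below all tumours. The edgeR log2 fold change of -2.75 ± 1.29 was not called (adjusted p = 0.0967); it was called without node replicate 1 (-3.33, adjusted p = 0.00408) and shrank to -1.15, not called, without node replicate 3. Epithelial markers moved with it in the nodes, where their summed level was 20.5, 47.9 and 142 CPM in Foxp3Ctrl replicates 1, 2 and 3 and 17.0 to 21.4 CPM in the Foxp3ΔJag1 group. In tumours the same 8 markers summed to 33.3, 6.59 and 3.61 CPM. None of the 8 was at 0 in every library of a group, 3 of 8 were called lower in tumour, and their part in the Atp6v1b1 level was not tested.

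**Figure D2:**
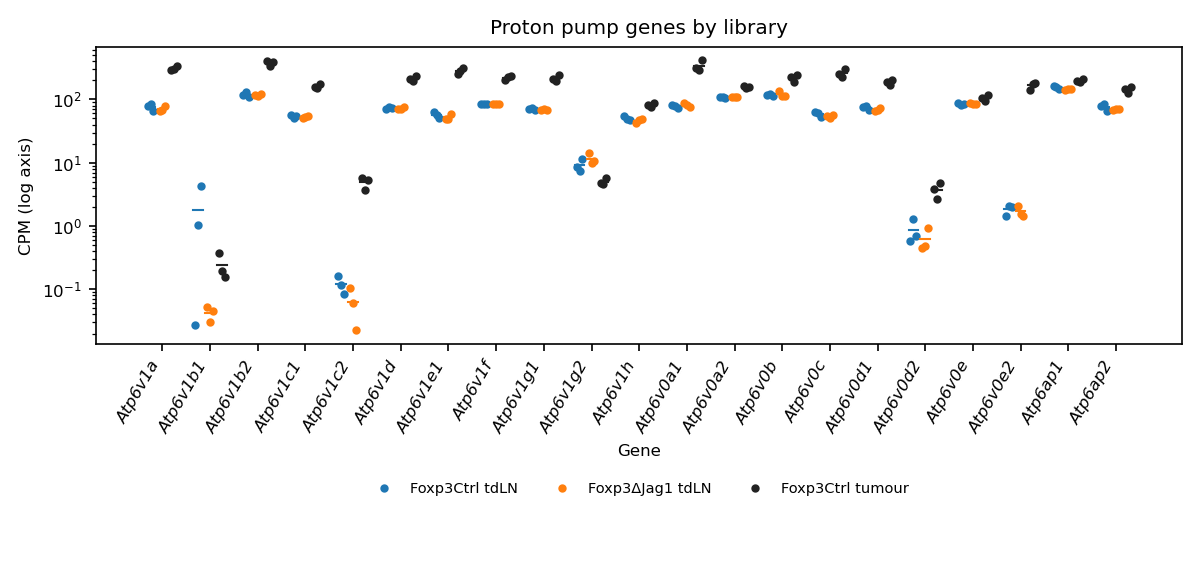
Level in CPM (log axis) of the pump and accessory genes with a mean of at least 1 CPM in a group, with 1 point per library and a bar at each group's mean. Foxp3Ctrl tumours (black) lie above both node groups (blue and orange) for most genes, while Atp6v1g2 lies lower in tumours and Atp6v1b1 spreads widely over the Foxp3Ctrl nodes.

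In the V0 sector, 9 of 9 subunit genes were tested and 9 were higher in tumour, with log2 fold changes between 0.37 and 6.56 and a median of 2.15. Their summed level was 527 ± 19.9 CPM in Foxp3Ctrl nodes and 1438 ± 170.3 CPM in tumours. Atp6v0c, which encodes the proteolipid of the proton-carrying ring, lies on chromosome 17 from 24163866 to 24169702. It was at 63.6, 60.8 and 53.5 CPM in nodes and 251, 226.5 and 306 CPM in tumours, with the lowest tumour over 3 times above the highest node. The log2 fold change was 2.19 ± 0.15 (edgeR adjusted p = 5.91e-06). A pseudogene named after it, Atp6v0c-ps2, was counted at 0.296 CPM in Foxp3Ctrl nodes and 1.89 CPM in tumours. Some reads of the pair may have been split, which was not tested. The other ring subunit Atp6v0b rose 1.92-fold and Atp6v0d1, which joins the ring to the V1 stalk, 2.59-fold.

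The largest change in the pump was in the small membrane subunit e. Atp6v0e2, on chromosome 6 from 48537615 to 48541801, was at 1.43, 2.07 and 1.97 CPM in the nodes of mice 1, 2 and 3, and at 143, 174 and 181 CPM in their tumours. Its log2 fold change was 6.56 ± 0.18 (edgeR adjusted p = 1.54e-07), a 94.2-fold difference. Its counterpart Atp6v0e, on chromosome 17 from 26663231 to 26699647, was at 88.1, 80.7 and 85.1 CPM in nodes and 105, 94.9 and 116 CPM in tumours, only 1.29-fold higher (log2 fold change 0.37 ± 0.10, edgeR adjusted p = 0.0087). The order of the pair was thereby exchanged. Per kb of exon, Atp6v0e2 made up 3.27 ± 0.711% of the e subunit transcripts in Foxp3Ctrl nodes and 2.98 ± 0.521% in Foxp3ΔJag1 nodes. In the tumours it made up 68.0%, 74.1% and 70.9%, or 71.0 ± 3.05% (SD, n = 3).

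The a subunit forms part of the proton path, and its versions direct the pump to different membranes. Atp6v0a1, known from synaptic vesicles and lysosomes, was at 83.1, 79.3 and 74.3 CPM in nodes and 311, 287 and 412 CPM in tumours. All tumours lay above all nodes, with a log2 fold change of 2.15 ± 0.15 (edgeR adjusted p = 8.6e-06). Atp6v0a2, known from the Golgi and endosomes, rose less, from 107.9 ± 2.70 to 156.8 ± 7.57 CPM (log2 fold change 0.59 ± 0.09, edgeR adjusted p = 0.000493). Tcirg1, the a3 version of lysosomes and osteoclasts, rose from 154 ± 22.3 to 334 ± 30.9 CPM (log2 fold change 1.17 ± 0.14, edgeR adjusted p = 0.000135). Per kb of exon, Tcirg1 had the largest share of the a subunit in all 3 groups, at 54.2 ± 4.26% in Foxp3Ctrl nodes and 49.3 ± 3.57% in tumours. The share of Atp6v0a1 was 19.6 ± 2.13% in nodes and 34.7 ± 3.87% in tumours, and that of Atp6v0a2 was 26.2 ± 2.16% and 15.9 ± 1.84%. In each Foxp3Ctrl node the share of Atp6v0a1 was below that of Atp6v0a2, and in each tumour it was above it, whereas the Tcirg1 shares of nodes and tumours overlapped.

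Atp6v0a4, the a4 version of kidney and inner ear, was detected almost only in tumours, at 1.39, 0.879 and 0.467 CPM. It had 103 counts over the tumours and 4 over the Foxp3Ctrl nodes, a ratio of 26.7 (95% exact interval 10.1 to 99.95, counting error only). The edgeR log2 fold change was 4.65 ± 0.73 (adjusted p = 0.000615). Its exons overlap D630045J12Rik on the same strand. Atp6v0d2, a d subunit known from osteoclasts, macrophages and dendritic cells, was at 0.578, 1.30 and 0.705 CPM in nodes and 3.91, 2.66 and 4.70 CPM in tumours (log2 fold change 2.15 ± 0.39, edgeR adjusted p = 0.00129). Its share of the d subunit was 0.748 ± 0.294% in nodes and 1.30 ± 0.235% in tumours, and these ranges overlapped. The 6 osteoclast markers summed to 314 to 374 CPM in Foxp3Ctrl nodes and 25.2 to 29.0 CPM in tumours, mostly from Acp5 and Nfatc1, and of 5 tested 3 were lower and 1 higher. Dcstamp, a fusion receptor also found in dendritic cells, went the way of Atp6v0d2, from 0.0464 to 0.141 CPM in nodes to 0.952 to 1.71 CPM in tumours, and Calcr was at 0 in all 9 libraries. Their part in the Atp6v0d2 level was not tested.

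**Figure D3:**
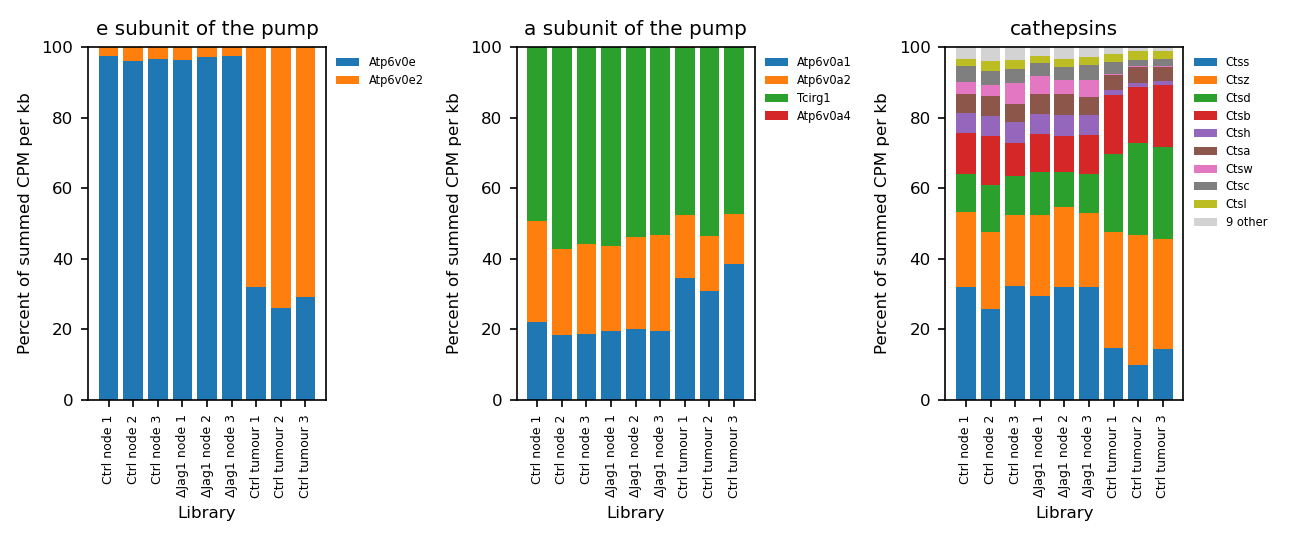
Percent of the summed CPM per kb of exon held by each version of the e subunit (left), each version of the a subunit (middle) and each cathepsin (right), with 1 stacked bar per library. Atp6v0e2 holds 71.0% of the e subunit in tumours against 3.27% in Foxp3Ctrl nodes; Ctss holds the largest share of the cathepsins in nodes and Ctsz in tumours.

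Both accessory genes that were tested were higher in tumour. Atp6ap2, the prorenin receptor, which takes part in pump assembly, rose 1.95-fold from 76.6 ± 10.7 to 144 ± 16.4 CPM (edgeR adjusted p = 0.000594). Atp6ap1, which encodes the accessory protein Ac45, rose 1.31-fold from 155.7 ± 6.52 to 196 ± 11.3 CPM (edgeR adjusted p = 0.0074). Between the tissues, melanoma markers moved with the pump genes: 10 of 10 were called higher in tumour, with the sums given above. Within the tumours they summed to 18460, 19590 and 24640 CPM in replicates 1, 2 and 3. Replicate 2 was the lowest tumour for 15 of 19 pump and accessory genes, and replicate 3 the highest for 16. Fibroblast markers summed to 525 to 1104 CPM in Foxp3Ctrl nodes and 1601 to 4647 CPM in tumours, with 5 of 8 higher and 3 lower. The part of either list in the pump gene levels was not tested.

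The promoters of several members carry the sequence CACGTG, the E-box bound by the MiT/TFE family of transcription factors, which includes MITF of melanocytes and TFEB and TFE3 of the lysosomal gene programme. Windows from 250 bases before to 50 bases after each start site were taken from RefSeq on GRCm38.p6, where 36 of the 47 members had 40 windows. CACGTG was found in 9 of the 40 windows (22.5%), and in 7.15% of all 32851 windows. These 9 windows belong to Atp6v0b, Atp6v0d1, Atp6v0e, Atp6v1a, Ctsa, Ctsd, Ctsf, Ctsl and Lamp1, of which 6 were higher in tumour, 1 lower and 2 not called. Of all 39 tested members 26 were higher (66.7%), which is the same share, and 9 were lower (23.1%). The longer TCACGTGA, which contains CACGTG, was in 5 of 40 (12.5%) against 0.974% of all windows, and the same letters with G before and C after them in 0 of 40 against 0.326%. TCATGTG, the M-box letters, was in 3 of 40 (7.5%) against 3.77%. All were searched on both strands. The following windows show where CACGTG, in capitals, lies in the 4 members that have TCACGTGA and were higher in tumour. TCACGTGA was also in Ctsa, which was not called, and CACGTG was also in Ctsf, which was lower. The windows of these and of the other members with CACGTG are not shown. The window of Atp6v0e2, the member with the highest fold change, is given for comparison. The strand is that of the gene.
Atp6v1a (chr16:44139210-44139509, minus strand): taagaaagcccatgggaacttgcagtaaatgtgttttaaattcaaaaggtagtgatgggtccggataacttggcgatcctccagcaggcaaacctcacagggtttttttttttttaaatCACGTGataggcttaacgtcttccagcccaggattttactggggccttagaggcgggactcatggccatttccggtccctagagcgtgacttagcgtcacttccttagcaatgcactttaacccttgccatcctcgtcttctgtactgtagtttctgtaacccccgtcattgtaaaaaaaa
Atp6v0d1 (chr8:105566015-105566314, minus strand): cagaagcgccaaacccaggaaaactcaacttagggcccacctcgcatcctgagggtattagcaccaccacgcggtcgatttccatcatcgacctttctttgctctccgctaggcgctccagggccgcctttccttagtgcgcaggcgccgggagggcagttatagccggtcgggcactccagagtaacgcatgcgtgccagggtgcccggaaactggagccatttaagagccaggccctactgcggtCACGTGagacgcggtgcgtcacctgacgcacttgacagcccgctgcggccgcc
Atp6v0e (chr17:26676146-26676445, plus strand): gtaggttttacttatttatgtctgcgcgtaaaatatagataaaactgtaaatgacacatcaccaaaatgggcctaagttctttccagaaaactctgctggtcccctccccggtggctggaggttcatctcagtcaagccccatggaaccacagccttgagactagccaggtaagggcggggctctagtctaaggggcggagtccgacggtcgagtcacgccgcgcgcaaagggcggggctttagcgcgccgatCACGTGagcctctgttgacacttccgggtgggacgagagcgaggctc
Ctsd (chr7:142387778-142388077, minus strand): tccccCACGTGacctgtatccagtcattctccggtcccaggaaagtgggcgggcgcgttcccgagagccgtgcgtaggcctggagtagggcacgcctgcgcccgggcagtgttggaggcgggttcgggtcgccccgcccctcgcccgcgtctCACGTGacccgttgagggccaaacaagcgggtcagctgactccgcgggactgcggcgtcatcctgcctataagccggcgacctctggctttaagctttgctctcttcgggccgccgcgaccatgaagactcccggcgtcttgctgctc
Atp6v0e2 (chr6:48537319-48537618, plus strand): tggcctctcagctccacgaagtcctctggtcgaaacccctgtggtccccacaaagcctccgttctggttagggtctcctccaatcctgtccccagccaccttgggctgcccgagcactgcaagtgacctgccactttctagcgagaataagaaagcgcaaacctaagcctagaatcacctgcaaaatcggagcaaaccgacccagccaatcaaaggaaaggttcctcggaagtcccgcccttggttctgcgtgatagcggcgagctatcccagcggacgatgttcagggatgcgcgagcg
CACGTG begins 131 bases before the start site in Atp6v1a, 3 bases before it in Atp6v0d1 and 4 bases into the transcript in Atp6v0e, and Ctsd has 2 copies, which begin 245 and 98 bases before it. The outermost GENCODE M21 starts of Atp6v1a and Atp6v0e lie upstream of these windows. That of Ctsd, at 142388038, lies within its window and upstream of the start site used here. The Ctsd copy 98 bases before that site is therefore inside the gene as GENCODE M21 annotates it. The window of Atp6v0e2 has no CACGTG, which says only that these letters are not in it. Among the genes that encode the factors, Mitf rose from 5.78, 10.3 and 8.55 CPM in nodes to 656, 809.6 and 607 CPM in tumours, 87.2-fold (log2 fold change 6.45 ± 0.27, edgeR adjusted p = 8.73e-07). Tfec was lower in tumour (log2 fold change -1.53 ± 0.37, edgeR adjusted p = 0.00561). Tfeb was at 79.5 and 70.2 CPM and Tfe3 at 55.8 and 56.0 CPM in nodes and tumours, and neither was called (edgeR adjusted p = 0.295 and 0.629). No binding was measured.

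Among the cathepsins, 14 of 18 were tested, and 4 were higher, 7 lower and 3 not called, with a median log2 fold change of -0.66. Over all genes tested 35.6% were called higher and 37.6% lower, so calls in both directions were usual and not particular to cathepsins. Their summed level was 3076, 3638 and 2618 CPM in Foxp3Ctrl nodes and 3793, 3438 and 3975 CPM in tumours, and the ranges overlapped. Ctsd, the main aspartic protease of lysosomes, lies on chromosome 7 from 142375911 to 142388038. It was at 281, 389 and 249.9 CPM in nodes and 684.5, 754.5 and 847 CPM in tumours, with every tumour above every node. The log2 fold change was 1.36 ± 0.20 (edgeR adjusted p = 0.000441). Ctsz, a carboxypeptidase also called cathepsin X, was at 338.5, 386 and 279.7 CPM in nodes and 626, 647 and 620.4 CPM in tumours (log2 fold change 0.97 ± 0.15, edgeR adjusted p = 0.000603). Its level differed little between the 3 tumours. Exons of Ctsz, Ctsb and Ctsa overlap other expressed genes on the opposite strand (Nelfcd, Fdft1 and Pltp).

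Ctsb, a broad cysteine protease, was at 767, 1043 and 542 CPM in nodes and 1334, 1184 and 1493 CPM in tumours. The groups were separate but close, and the log2 fold change of 0.81 ± 0.25 (edgeR adjusted p = 0.0205) was not called without node replicate 1 (adjusted p = 0.06) or tumour replicate 3 (adjusted p = 0.0504). Ctsk, the collagen-degrading cathepsin of osteoclasts and activated fibroblasts, was at 7.13, 12.1 and 5.81 CPM in nodes and 24.6, 15.8 and 14.5 CPM in tumours. Its log2 fold change of 1.17 ± 0.34 (edgeR adjusted p = 0.0151) was likewise not called without node replicate 1 (adjusted p = 0.0555). Fibroblast markers summed to 999.8, 1104 and 525 CPM in the Foxp3Ctrl nodes and 4647, 2332 and 1601 CPM in the tumours in the same order of mice, which is the order of Ctsk within each of these groups. In Foxp3ΔJag1 nodes Ctsk was at 7.97, 7.15 and 6.62 CPM and the markers summed to 562, 857 and 727 CPM, so the library highest in Ctsk was lowest in the markers. Of these 8 markers 5 were called higher and 3 lower in tumour, none was at 0 throughout a group, and their part in the Ctsk level was not tested.

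**Figure D4:**
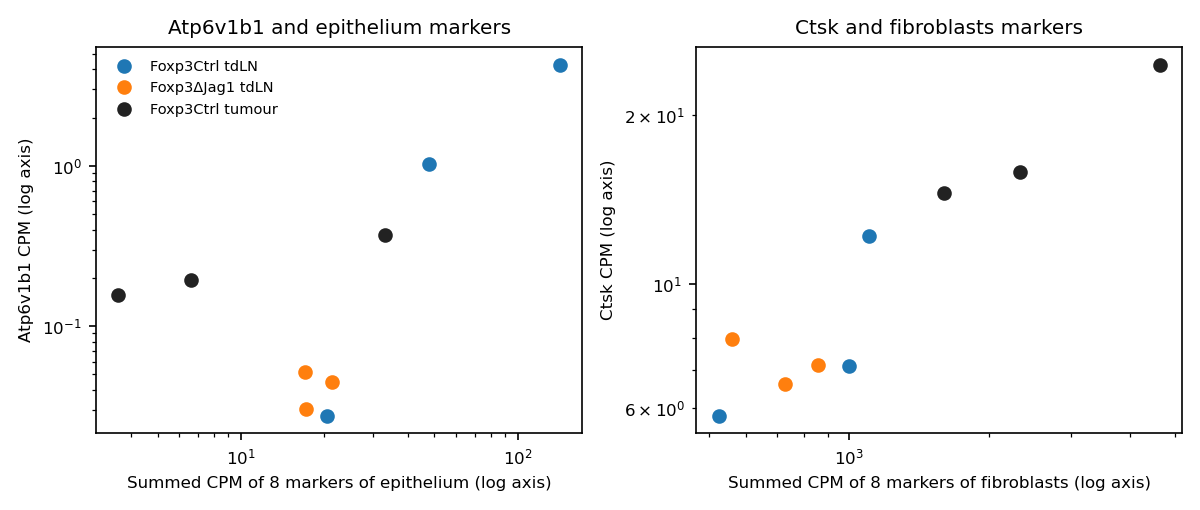
Left, Atp6v1b1 against the summed CPM of 8 epithelial markers; right, Ctsk against the summed CPM of 8 fibroblast markers, with 1 point per library and log axes. The Foxp3Ctrl node with 142 CPM of epithelial markers has the highest Atp6v1b1 level, and the tumour with 4647 CPM of fibroblast markers has the highest Ctsk level.

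The 7 cathepsins lower in tumour were Ctse, Ctsf, Ctsg, Ctsh, Ctso, Ctss and Ctsw. Ctss, which degrades the invariant chain in antigen-presenting cells, was at 480.0, 432.5 and 424 CPM in nodes and 261, 166 and 273 CPM in tumours. Every tumour lay below every node (log2 fold change -0.88 ± 0.19, edgeR adjusted p = 0.00312). Ctsh, an aminopeptidase, fell 4.23-fold, from 280.1, 319 and 255 to 78.4, 54.9 and 62.0 CPM (log2 fold change -2.08 ± 0.17, edgeR adjusted p = 1.56e-05). Ctse, an endosomal aspartic protease, fell 54.1-fold, from 29.1, 34.3 and 30.7 to 0.746, 0.317 and 0.623 CPM (log2 fold change -5.76 ± 0.29, edgeR adjusted p = 1.43e-06). Ctsw, a cathepsin of cytotoxic lymphocytes, fell 17.3-fold, from 72.4, 71.8 and 108 to 3.68, 4.42 and 5.92 CPM (log2 fold change -4.11 ± 0.22, edgeR adjusted p = 2.57e-06). Its exons overlap Fibp on the opposite strand. Ctsf and Ctso, both cysteine cathepsins of broad expression, fell 2.59-fold and 2.73-fold (edgeR adjusted p = 0.00313 and 0.000458).

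Ctsg, a serine protease stored in granules of neutrophil precursors, was at 3.53, 11.6 and 1.55 CPM in nodes and had 3 counts in all tumours together. From 681 node counts this is a ratio of 219 (95% exact interval 74.5 to 1063, counting error only), and edgeR called it (adjusted p = 0.000999). Node replicate 2 held most of its node counts. Markers of several immune cell types were also lower in tumour, among them 8 of 8 for B cells and 8 of 8 for T cells. Those of macrophages went in both directions. In Foxp3Ctrl nodes and in tumours, 8 cytotoxic lymphocyte markers summed to 173 to 194 and 28.7 to 56.5 CPM (7 lower, 1 higher), 8 conventional dendritic cell markers to 259 to 272.5 and 32.9 to 46.5 CPM (8 lower), and 8 neutrophil markers to 106 to 221 and 8.93 to 15.6 CPM (7 of 7 tested lower). The 12 macrophage markers summed to 2974 to 4106 CPM in nodes and 2113 to 2637 CPM in tumours, most of it Apoe at 2225 to 3109 and 1171 to 1869 CPM, while 4 of 12 were called higher and 2 lower and their median log2 fold change was 0.52. The 8 mast cell markers summed to 62.1 to 94.7 CPM in nodes and 44.6 to 78.6 CPM in tumours, where most of it was Kit at 37.3 to 66.2 CPM, and 5 of 7 tested were lower. None of these markers was at 0 throughout a group, and their part in the cathepsin levels was not tested.

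The remaining 3 tested cathepsins were not called between tissues. Ctsa, the carboxypeptidase that protects β-galactosidase and neuraminidase, was at 281 ± 42.5 CPM in nodes and 265 ± 8.17 CPM in tumours (log2 fold change -0.03 ± 0.14, edgeR adjusted p = 0.839). Ctsc, which activates granule serine proteases, was at 284, 289.8 and 218 CPM in nodes and 269, 127 and 171 CPM in tumours (log2 fold change -0.44 ± 0.28, edgeR adjusted p = 0.198). Tumour replicate 1 lay within the range of the nodes, and without it Ctsc was called lower (log2 fold change -0.75, edgeR adjusted p = 0.0112). Ctsl, a cysteine protease of lysosomes, was at 154, 238 and 160.5 CPM in nodes and 205, 187 and 192 CPM in tumours (log2 fold change 0.13 ± 0.19, edgeR adjusted p = 0.558). Node replicate 2 lay above all tumours, and without it Ctsl was called higher (log2 fold change 0.39, edgeR adjusted p = 0.00979).

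Per kb of exon, the cathepsin transcripts were composed differently in the tissues. Ctss held 30.1 ± 3.70% in Foxp3Ctrl nodes, 31.2 ± 1.51% in Foxp3ΔJag1 nodes and 13.0 ± 2.66% in tumours. Ctsz held 20.1 to 21.7%, 20.9 to 23.0% and 31.1 to 36.6% over the libraries of the same groups, and Ctsd held 11.8 ± 1.43%, 11.0 ± 1.20% and 24.8 ± 2.29%. For each of these 3 genes the tumours lay outside the range of all nodes. Ctss thus led in every node, and Ctsz led in every tumour. By catalytic type, aspartic cathepsins made up 12.7 ± 1.41% in Foxp3Ctrl nodes and 24.8 ± 2.29% in tumours, cysteine cathepsins 81.5 ± 1.91% and 70.9 ± 2.36%, and serine cathepsins 5.86 ± 0.541% and 4.31 ± 0.401%.

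**Figure D5:**
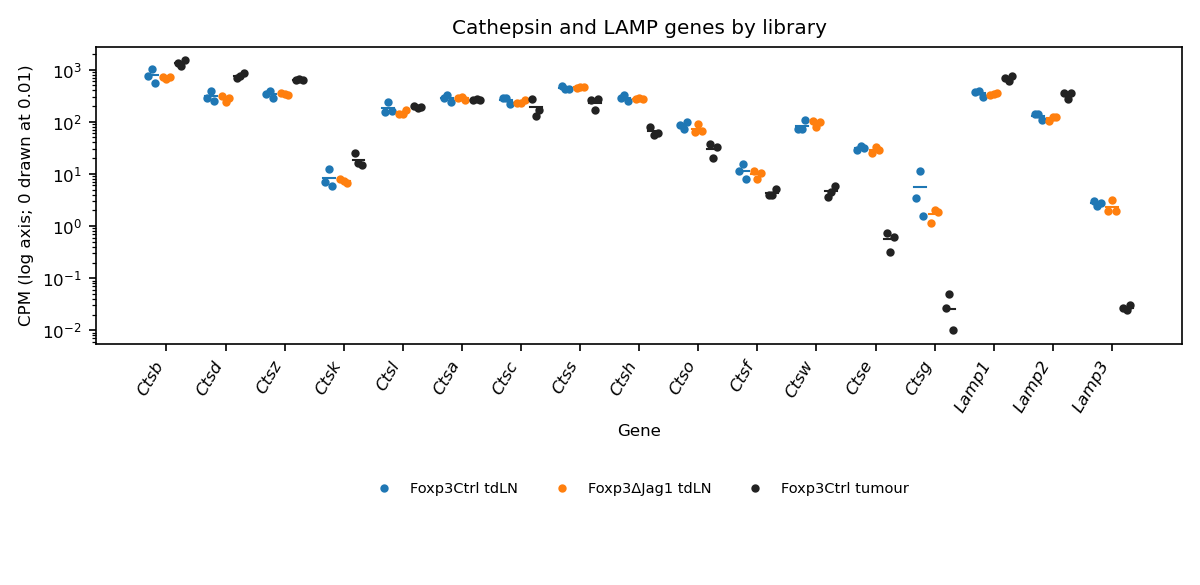
Level in CPM (log axis, 0 drawn at 0.01) of the cathepsin and LAMP genes with a mean of at least 1 CPM in a group, with 1 point per library and a bar at each group's mean. Foxp3Ctrl tumours (black) are higher than nodes for Ctsb, Ctsd, Ctsz, Ctsk, Lamp1 and Lamp2, and lower by the widest distance for Ctse, Ctsg and Lamp3, while the node groups (blue and orange) overlap for every gene.

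The LAMP genes also went in both directions. Lamp1 and Lamp2, the abundant glycoproteins of the lysosomal membrane, were both higher in tumour. Lamp1 was at 376, 384 and 299 CPM in nodes and 684, 600.7 and 759 CPM in tumours (log2 fold change 1.00 ± 0.15, edgeR adjusted p = 0.000539). Lamp2, which also serves chaperone-mediated autophagy, was at 139, 141 and 110.2 CPM in nodes and 359.6, 273 and 356 CPM in tumours (log2 fold change 1.39 ± 0.16, edgeR adjusted p = 0.000118). Lamp3, also called DC-LAMP and known from mature dendritic cells and lung epithelium, was at 2.97, 2.44 and 2.71 CPM in nodes and had 1 count in each tumour. Its 309 node counts against 3 give a ratio of 99.2 (95% exact interval 33.6 to 484, counting error only), and edgeR called it lower (adjusted p = 2.73e-06). Markers of migratory dendritic cells summed to 949 to 1226 CPM in nodes and 412 to 493 CPM in tumours, with 6 of 8 called lower, 1 higher and none at 0. Most of the tumour sum was Fscn1, at 335 to 434 CPM, and the part of these cells in the Lamp3 level was not tested.

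Other genes of the lysosome were described with the same fit. Over all 18566 genes tested it called 35.6% higher and 37.6% lower in tumour, with a median log2 fold change of -0.05. Of 42 other soluble lysosomal hydrolases tested, 24 were higher and 10 lower in tumour, with a median log2 fold change of 0.51, and of 24 other lysosomal membrane proteins 13 were higher and 6 lower, with a median of 0.51. Gaa, the acid α-glucosidase, rose 5.04-fold from 80.5 ± 10.2 to 391.8 ± 25.6 CPM (edgeR adjusted p = 3.41e-06), and Cd63, a tetraspanin of lysosomes and melanosomes, 7.01-fold (edgeR adjusted p = 2.78e-06). Laptm5, a lysosomal protein of blood cells, fell 9.81-fold (edgeR adjusted p = 1.71e-06). Ragulator and Rag GTPases bind mTORC1 to the lysosome. Of 12 genes for them and for partner proteins such as Fnip1 and Fnip2, 10 were higher and 1 lower, with a median of 0.66. Of 13 tested genes for pump assembly and accessory factors, 6 were higher and 3 lower (median 0.34). Dmxl2, a rabconnectin that promotes pump assembly, rose from 8.88 ± 1.14 to 342 ± 102 CPM, and Rogdi, which acts with it, fell from 87.6 ± 6.17 to 19.8 ± 1.05 CPM (edgeR adjusted p = 1.77e-06 and 1.31e-06). Of 11 genes for sorting of lysosomal proteins, by mannose 6-phosphate or otherwise, 6 were higher and 2 lower (median 0.38). Among them the mannose 6-phosphate receptor gene Igf2r rose 2.11-fold (edgeR adjusted p = 2.64e-05). Sort1, for the sorting receptor sortilin, rose 24.4-fold (edgeR adjusted p = 2.95e-05).

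Cathepsin inhibitors moved in both directions. Of 6 tested, 2 were higher and 4 lower in tumour, with a median log2 fold change of -0.79. The median over all genes tested was -0.05, and 35.6% of them were called higher and 37.6% lower. Cst7, cystatin F of cytotoxic and other immune cells, fell 16.2-fold, from 34.5 ± 0.966 to 2.05 ± 0.376 CPM (edgeR adjusted p = 5.94e-07). Cst6, cystatin E/M of skin, rose from 0.277 ± 0.0993 to 26.4 ± 6.30 CPM (edgeR adjusted p = 1.15e-06). Cstb, the cytosolic stefin B, rose 2.03-fold (edgeR adjusted p = 7.6e-05).

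In the draining nodes, the genotype comparison asks whether deletion of Jag1 directed to Foxp3-expressing cells changed these genes. No member was called. Of the 47 genes, 36 passed the filter, 0 were called by edgeR at an FDR of 0.05, and 0 had an unadjusted p under 0.05. DESeq2 and limma-voom also called 0 members. Among all 18440 genes tested edgeR called 7 (0.0380%), and 581 had an unadjusted p under 0.05. The node groups overlapped for every tested member, while 7.29% of all genes did not overlap. The edgeR adjusted p of the members lay between 0.953 and 0.998. The 95% intervals leave out a 2-fold change in either direction for 34 of the 36 members and a 1.5-fold change for 26, and the members whose interval reached 2-fold were Ctsg and Atp6v0d2.

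The levels were close for the abundant genes. Atp6v1a was at 64.5, 68.7 and 77.5 CPM in Foxp3ΔJag1 nodes, within the range of the Foxp3Ctrl nodes for 2 of the 3 libraries (log2 fold change -0.16 ± 0.12, edgeR adjusted p = 0.953). Ctss was at 435, 458 and 473 CPM (log2 fold change 0.01 ± 0.08, edgeR adjusted p = 0.995). The summed V1 level was 577 ± 23.1 CPM against 596 ± 24.5 CPM in Foxp3Ctrl nodes, and the summed V0 level 523 ± 18.3 against 527 ± 19.9 CPM. Summed cathepsins were at 2943 ± 63.6 against 3111 ± 511 CPM, and summed LAMPs at 457 ± 19.4 against 486 ± 64.1 CPM. The differences in these sums were smaller than the SD of the Foxp3Ctrl group.

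Among the 36 tested members, 29 had a lower and 7 a higher estimate in Foxp3ΔJag1 nodes, with a median log2 fold change of -0.12 against -0.0045 over all genes tested. Foxp3Ctrl node replicate 2 had the highest level of its group in 13 of 17 cathepsin and LAMP genes, and without it the median of the members was -0.01. That library also had the highest sum of the 12 macrophage markers, 4106 CPM against 2974 and 3000 CPM in replicates 1 and 3. The Foxp3ΔJag1 nodes had 3763, 3030 and 3491 CPM in replicates 1, 2 and 3, and most of each sum was Apoe. Their replicate 1, with the highest sum of that group, was highest for 5 and lowest for 8 of the 17 cathepsin and LAMP genes. Markers of minor cell types differed between the node groups without passing the threshold in any gene: 5 of 5 tested erythroid markers and 4 of 6 tested epithelial markers had an unadjusted edgeR p under 0.05, with median log2 fold changes of -1.43 and -3.37. Erythroid markers summed to 30.8 to 75.0 CPM in Foxp3Ctrl and 15.3 to 25.2 CPM in Foxp3ΔJag1 nodes. The part of these cells in the member levels was not tested.

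The estimates farthest from 0 were those of Ctsg, Atp6v0d2, Atp6v1g2 and Ctsl, and the node groups overlapped for each. Ctsg was at 1.15, 2.02 and 1.89 CPM in Foxp3ΔJag1 nodes, which overlapped the lowest Foxp3Ctrl node, and its log2 fold change of -1.77 ± 0.79 was not called (edgeR adjusted p = 0.953). Neutrophil markers summed to 106, 221 and 180 CPM in Foxp3Ctrl nodes and 31.4, 75.3 and 204 CPM in Foxp3ΔJag1 nodes, with 0 of 8 called and 0 of 8 with an unadjusted p under 0.05. Mast cell markers summed to 62.1, 84.1 and 94.7 CPM in Foxp3Ctrl nodes and 43.3, 60.2 and 49.4 CPM in Foxp3ΔJag1 nodes, with 0 of 8 called and 6 of 8 with an unadjusted p under 0.05. The part of neither list in the Ctsg level was tested. Atp6v0d2 was at 0.443, 0.483 and 0.921 CPM in Foxp3ΔJag1 nodes (log2 fold change -0.51 ± 0.42, edgeR adjusted p = 0.953). Atp6v1g2 had the highest estimate, at 14.5, 9.77 and 10.6 CPM in Foxp3ΔJag1 nodes (log2 fold change 0.33 ± 0.19, edgeR adjusted p = 0.953). Ctsl was at 143, 144 and 168 CPM in Foxp3ΔJag1 nodes (log2 fold change -0.31 ± 0.18, edgeR adjusted p = 0.953). Of 112 tested genes in the 7 lists of other lysosomal genes and their regulators, edgeR, DESeq2 and limma-voom each called 0 between the node groups, and 1 had an unadjusted edgeR p under 0.05.

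Of the 47 members, 9 stayed below a mean of 1 CPM in all 3 groups, among them Atp6v0a4 and Atp6v1g3 above. Atp6ap1l, Atp6v1e2, Ctsm and Ctsq had no count in any library, which allows up to 0.00878 CPM over the 9 libraries together. Atp6v1e2 is known from testis, and Ctsm and Ctsq belong with Ctsj and Ctsr to a cathepsin cluster of the rodent placenta on chromosome 13. Ctsj had 1 count in a Foxp3ΔJag1 node, Ctsr 2 counts in a Foxp3Ctrl node and Atp6v1fnb 1 count in a tumour. Of the other 38 members, 37 had counts in every library, and Ctsg had none in tumour replicate 3.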

How the data were processed

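RNA sequencing was made from whole tissue of at most 5 mg with an RNA integrity number over 9.0, per the labels' protocols, which name both poly(A) enrichment and ribosomal RNA depletion. The authors deposited raw read counts per gene as whole numbers, with nodes and tumours in separate tables. The submitters' processing notes name Trimmomatic 0.36, STAR 2.5.2b, featureCounts of Subread 1.5.2 and GRCm38. Neither the annotation nor the strand setting is stated. Of 49315 identifiers, 49056 matched GENCODE M21, which gave symbols, positions and exon lengths. The labels list 13 samples and 9 libraries were used; 3 columns of the tumour table match no sample and were not used, and the 4 Foxp3ΔJag1 tumours were not analysed here.

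CPM use total counts without normalization factors, with means and SDs over 3 libraries, and levels per kb divide by the exon union. Genes were tested, 2-sided, with edgeR 4.0.16 under R 4.3.3 by its quasi-likelihood test on the deposited counts (TMM, filterByExpr, robust, Benjamini-Hochberg over all genes tested, FDR 0.05), on 6 libraries per comparison and without a block. The script was tested on simulated data. Exact 95% intervals of count ratios and floors of 3 counts cover counting error only. Replicates of a group differed by more than sampling noise (chi-square per degree of freedom 17.1 to 75.4), and none was counted as a repeat. The labels do not say more of how replicates were made than separate mouse codes.

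The library names give node and tumour of a Foxp3Ctrl replicate the same mouse code. Deviations of these pairs from their group means correlated at -0.0085, 0.188 and 0.10 over 12914 genes. Alternatives were limma-voom (limma 3.58.1), DESeq2 1.42.0, its size factors in edgeR, scaling by library size, other filters, a non-robust fit, a joint fit, a replicate block, FDR 0.01, each replicate left out and the longest transcript as length. A 2-fold rule was added after seeing the data. Members, gene lists and markers were chosen with earlier results of these data known. Members with a mean of at least 1 CPM in a group are described, and of each other list only the 3 genes with the smallest p could be named.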

Additional observations from a re-analysis of the deposited data

How the results depend on the processing

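In the tumour and node comparison, all 35 member calls were kept with DESeq2 size factors, library size only, DESeq2, limma-voom, no filter on low counts, the non-robust fit and the joint fit. With the mouse as a replicate block, 26 members were called higher and 9 lower, and no member call changed; 61 genes of the other lysosomal lists were called higher and 28 lower, against 62 and 27 without the block. In the nodes, where replicate numbers pair nothing else, the block gave 0 calls in both directions, and deviations of same-numbered libraries correlated at -0.182, 0.0377 and -0.159. The genotype comparison gave 0 member calls under every alternative run. Leaving out each replicate in turn gave 24 to 27 members called higher and 9 to 10 lower. At an FDR of 0.01 Ctsb and Ctsk were no longer called. Demanding 1 CPM in 3 or more libraries removed Atp6v0a4 from the test. DESeq2 also called Atp6v1b1 lower (adjusted p = 0.0192), and without the filter on low counts edgeR also called Atp6v1g3 lower. The 2-fold rule, chosen after seeing the data, left 17 members higher, and 36 genes of the other lists higher and 15 lower. The log2 fold change of Ctsa was 0.02 in the joint fit and -0.19 to 0.11 with each replicate left out, that of Ctsl -0.0088 to 0.39 and that of Tfe3 -0.0186 to 0.16; the cause was not tested. With the longest transcript as length, Ctsb held 19.2% of the tumour cathepsins, Ctsh 8.17% in Foxp3Ctrl nodes and 1.62% in tumours, Ctss 26.1% in nodes, and Ctsz 18.2% in nodes and 30.1% in tumours. With 3 libraries a group and whole tissue, small differences and cell types could not be resolved, and members near 1 CPM or below rest on few counts.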

Other observations

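The libraries of a group did not rank alike for all genes. Of the 19 pump and accessory genes that were higher in tumour and reached a mean of 1 CPM, tumour replicate 3 was highest in 16 and tumour replicate 2 lowest in 15. Among the Foxp3Ctrl nodes replicate 3 was lowest for 14 of these genes, while the highest was replicate 1 for 9 and replicate 2 for 10. In Foxp3ΔJag1 nodes the highest was replicate 1, 2 and 3 for 6, 3 and 10 genes, and the lowest for 10, 5 and 4. For the 17 cathepsin and LAMP genes at this level, Foxp3Ctrl node replicate 2 was highest in 13 and replicate 3 lowest in 12. For these 17 genes in Foxp3ΔJag1 nodes, the highest was replicate 1, 2 and 3 for 5, 6 and 6, and the lowest for 8, 4 and 5. The genes share these libraries and their totals, so the counts describe the libraries and carry no test.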
